A study of Rattus norvegicus with 4 samples.

Results

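The thyroid hormone receptor gene Thra, the retinoid X receptor genes Rxra, Rxrb and Rxrg, the corepressor gene Ncor1 and the coactivator genes Ncoa1, Ncoa2, Ncoa3 and Med1 were examined in rat hypothalamus. Their probes were found by matching the accession of every probe to RefSeq transcripts. Of the 9 genes, 4 had a matched probe: Thra, Rxrb and Ncoa2 with 1 each and Rxrg with 2, which makes 5 of 41012 probes. No probe was matched to Rxra, Ncor1, Ncoa1, Ncoa3 or Med1, so they have no values here. Thrb, the other thyroid hormone receptor gene, also had no match.

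The tissue came from 8 male Sprague Dawley rats, aged 7 weeks when treatment began and 10 weeks when killed. All of them drank 0.025% MMI (methimazole, which blocks thyroid hormone synthesis) for 22 days, so both groups were hypothyroid before the injection and no euthyroid rat was compared. On day 21, 4 rats received T3 (triiodothyronine, the active hormone) at 25 µg per 100 g and 4 received saline, and hypothalamic blocks from bregma -2.12 to -4.52 mm were taken 24 hours later. Each of 4 two-colour arrays carried RNA of a T3 rat and of a saline rat. The T3 rat was labelled with Cy5 on arrays 1 and 3, and with Cy3 on the other arrays (2 and 4). The array was the unit of replication.

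Thyroid hormone receptors are nuclear receptors that sit on DNA mostly as heterodimers with a retinoid X receptor. Without T3 they recruit a corepressor complex that holds NCoR1 and the deacetylase HDAC3, and T3 exchanges it for coactivators of the p160 family (Ncoa1 to Ncoa3), acetyltransferases and the Mediator complex, which MED1 contacts. Thra is the main receptor gene of brain, and its transcripts also encode a splice form that does not bind T3. Rxrg is the most tissue-restricted of the retinoid X receptors, and thyrotrophs of the pituitary and cells of the oligodendrocyte lineage are among those known to express it.

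The promoters of Thra and Rxrg are shown because these genes encode the partners of the receptor heterodimer and differ in base composition at their starts. The bases are those before the first annotated base of the gene in RefSeq, and capitals mark GC boxes (GGGCGG on either strand).
Thra, chr10:84197891-84198140, GRCr8, plus strand: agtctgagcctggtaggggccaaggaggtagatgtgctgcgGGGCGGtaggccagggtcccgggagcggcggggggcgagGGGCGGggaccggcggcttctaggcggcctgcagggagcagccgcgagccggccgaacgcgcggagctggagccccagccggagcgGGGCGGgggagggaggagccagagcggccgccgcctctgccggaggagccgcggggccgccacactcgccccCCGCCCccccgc
Rxrg, chr13:82276237-82276329, GRCr8, plus strand: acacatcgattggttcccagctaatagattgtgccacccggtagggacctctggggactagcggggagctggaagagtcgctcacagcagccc
The Thra stretch of 250 bases held 4 GC boxes and was 79.6% G or C. The Rxrg stretch of 93 bases held 0 GC boxes and was 59.1% G or C. In windows of 250 bases before a listed start, the other Thra window held 0 GC boxes, the Rxrg window 0 GC boxes, the Rxrb window 2, and 30.5% of 33469 rat promoters at least 1. The hexamer AGGTCA, the core letters of a thyroid hormone response element, was searched on both strands and was in none of the windows of Thra, Rxrb or Rxrg, while 14.1% of all promoters held it. Its direct repeat with a spacer of 4 bases was in 1 of the 33469 windows. The windows of Klf9 and Dio3, genes known to respond to T3, also held 0 hexamers and 0 such repeats. These windows cover the bases next to a listed start alone, and Ncoa2 had no entry in the promoter table. The Rxrg window (82276237 to 82276486) runs past the first annotated base of the gene, and the 93 bases shown are the part before it. Bases further upstream of Rxrg were not searched.

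The median spot signal ran from 110 to 138.5 for Cy3 and from 238 to 281 for Cy5, and 48.6% to 66.9% of probes were well above background in a channel. Of 19 hypothalamic marker genes with a probe, 17 passed the filter on dim probes, among them Pmch, Hcrt, Pomc, Agrp and Hdc. Some arrays stood apart in markers of other tissues or of single nuclei, and the part of this in the ratios below was not tested. On array 3 the choroid plexus marker Ttr was at 3.53 and the neurohypophysial peptide gene Avp at -2.63 (log2 T3 over saline), on array 2 the haemoglobin gene Hbb-b1 at -4.25, and on array 1 the pituitary hormone gene Prl at 4.68. Across kept probes, which are not independent replicates, ratios correlated at r = 0.38 between arrays 1 and 3 and 0.18 between arrays 2 and 4, against -0.11 to 0.12 between arrays of opposite dye orientation.

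No receptor or coregulator probe passed the test across all probes. The test was limma on log2 T3 over saline with Benjamini-Hochberg adjustment over 23148 kept probes and a threshold of 0.05. It called 0 of the 5 member probes, where 0.0994% of all probes were called (22 higher and 1 lower). By an unadjusted limma p under 0.05, both Rxrg probes were lower and the other 3 did not pass, where 3.96% of all probes were lower by that count. In tissue blocks, fewer cells of a type and less RNA per cell cannot be told apart.

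**Figure D1:**
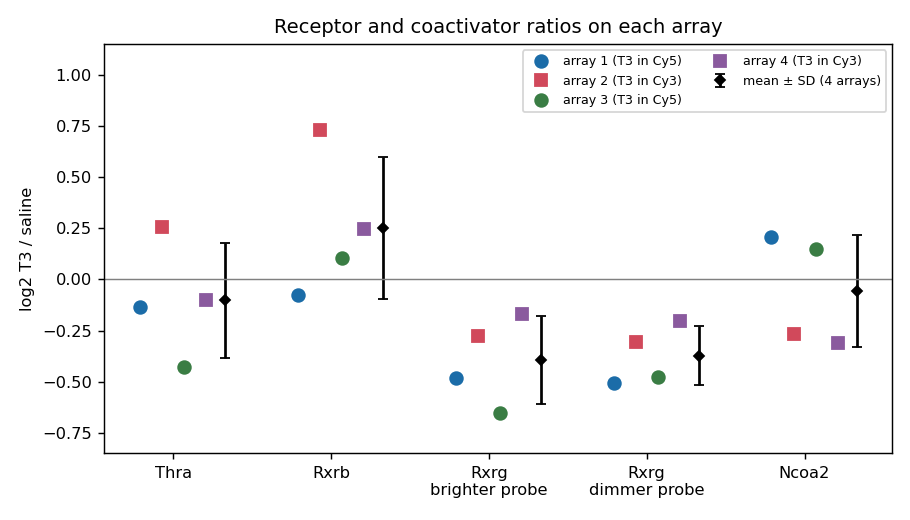
Log2 ratio of T3 over saline (y axis) for each of the 5 probes (x axis) on arrays 1 to 4, with circles for T3 in Cy5 and squares for T3 in Cy3; diamonds and bars are the mean and SD of the 4 arrays. Both Rxrg probes lie below 0 on every array, at -0.65 to -0.17, while Thra, Rxrb and Ncoa2 lie on both sides of 0.

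Thra encodes the receptor itself. Its log2 ratios were -0.14, 0.26, -0.43 and -0.10 on arrays 1 to 4. Array 2 alone was above 0, and the arrays spread over more than the mean. The mean was -0.10 ± 0.28 (SD, n = 4 arrays), with a 95% limma interval of -0.36 to 0.16 and a limma adjusted p of 0.909. That interval covers a T3 level from somewhat below to slightly above saline, so a small change in either direction was not detectable with 4 arrays. In single rats, the normalized log2 level was 11.61, 11.57, 11.38 and 11.75 after T3 and 11.75, 11.32, 11.81 and 11.86 after saline. The groups overlapped, and the lowest of the 8 rats was the saline rat of array 2. Without replicate 2 the mean was -0.22 (limma adjusted p = 0.521), and without replicate 3 it was 0.0055 (limma adjusted p = 0.998). Which splice form the Thra probe reads was not determined.

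Nr1d1, the clock repressor REV-ERB alpha, is transcribed from the opposite strand and overlaps the end of Thra in RefSeq. Its ratios were -0.02, -0.18, -0.05 and -0.36 on arrays 1 to 4. All arrays were below 0, with a mean of -0.15 ± 0.15 (SD, n = 4) that did not pass (limma adjusted p = 0.730).

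Rxrg encodes the gamma retinoid X receptor and had the lowest ratio of the members. Its brighter probe gave log2 ratios of -0.48, -0.27, -0.65 and -0.17 on arrays 1 to 4. All 4 arrays were lower after T3, a pattern that 7.89% of all probes showed. The mean of -0.39 ± 0.21 (SD, n = 4) corresponds to 76.1% of the saline level, with a 95% limma interval of -0.62 to -0.17. It did not pass over all probes (limma adjusted p = 0.253). Without array 3, where it was lowest, the mean was -0.31 (limma adjusted p = 0.705). Ranked by mean ratio, 70 of 9295 named genes were lower than this probe.

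The dimmer Rxrg probe gave -0.51, -0.31, -0.48 and -0.20. It is a separate oligonucleotide measured on the same RNA, so it repeats the measurement and adds no rat. Its mean was -0.37 ± 0.14 (SD, n = 4), or 77.2% of the saline level, with a 95% limma interval of -0.56 to -0.19 (limma adjusted p = 0.198). On arrays 1, 2 and 4 the probes lay within a few hundredths of each other, and on array 3 the brighter one was lower.

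By rat, the brighter Rxrg probe had normalized log2 levels of 11.87, 12.40, 12.00 and 12.22 after T3 and 12.35, 12.68, 12.65 and 12.39 after saline. The groups overlapped, since the T3 rat of array 2 was above the saline rats of arrays 1 and 4. The dimmer probe had levels of 8.41, 8.75, 8.63 and 8.79 after T3 and 8.92, 9.06, 9.11 and 8.99 after saline. Here every T3 rat was below every saline rat, as for 0.683% of all probes. Both probes were well above background in both channels of all 4 arrays, and 0 arrays were saturated, with median signals of the brighter probe from 2523 to 11141 over backgrounds of 48 to 110.

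**Figure D2:**
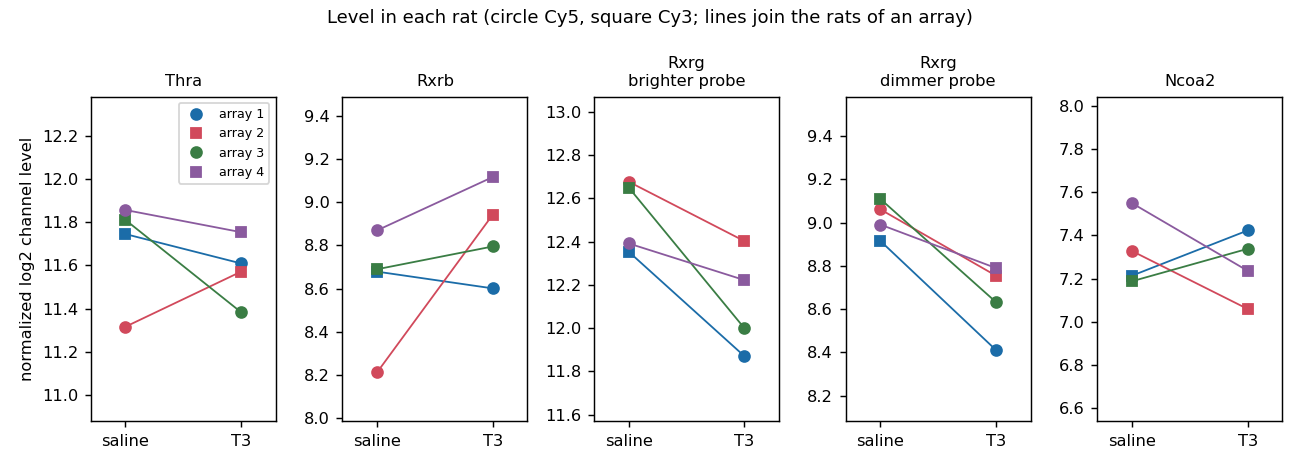
Normalized log2 channel level (y axis, the same span in each panel) of each probe in the saline and the T3 rat of each array, with circles for Cy5, squares for Cy3 and a line joining the rats of an array. For both Rxrg probes all 4 lines run downward from saline to T3, and for the dimmer probe the T3 rats (8.41 to 8.79) lie below the saline rats (8.92 to 9.11).

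The size of the Rxrg ratio differed with the dye orientation. The brighter probe averaged -0.57 on arrays 1 and 3 (T3 labelled with Cy5) and -0.22 on arrays 2 and 4 (T3 labelled with Cy3), and the dimmer probe -0.49 and -0.25. The direction was the same within each orientation. A dye term in the fit left the means unchanged, and with it limma gave an adjusted p of 0.095 for the brighter and 0.093 for the dimmer probe. Those were the smallest adjusted p of the 12 alternatives for either probe. The dye coefficient was -0.17 for the brighter probe (limma unadjusted p = 0.034, limma adjusted p = 0.260). For the dimmer probe it was -0.12 (limma unadjusted p = 0.086, limma adjusted p = 0.353). The fit with trend and robust variance gave a limma adjusted p of 0.83 for both. Median centring in place of loess gave means of -0.45 and -0.41, which did not pass by the unadjusted p either.

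In the authors' deposited table of log ratios, read here as log2, the Rxrg values were not all below 0. The brighter probe was at -0.20, -0.45, -0.25 and 0.17 there and the dimmer probe at -0.16, -0.19, 0.18 and -0.06. Array 4 was above 0 for the brighter and array 3 for the dimmer probe. In the authors' deposited table the limma means were -0.18 and -0.060, and neither passed. The columns of that table correlated with the ratios of their own arrays at r = 0.19 to 0.43 across kept probes, and the sources used here do not give its normalization steps or log base, so sizes in it are not set against those from the scanner files. Agilent's processed signals from the same scanner files gave -0.42, -0.38, -0.52 and -0.35 for the brighter probe, all below 0 and closer together.

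Markers of other cells known to express Rxrg were read beside it. Whether the ratio of a marker follows cell content or a response of that marker to T3 was not tested. Tshb, the thyrotropin subunit gene of pituitary thyrotrophs, was at -1.09, -0.80, -0.94 and 0.17 on arrays 1 to 4. It was lower on 3 of 4 arrays and did not pass (mean -0.67 ± 0.57, SD, n = 4, limma adjusted p = 0.362). It was well above background on 2 of 4 arrays after T3 and on 3 of 4 after saline. Of the 6 pituitary markers, 3 passed the filter on dim probes, with means of -0.67 to 0.03 and a list median of -0.58, -0.70, -0.94 and -0.52 on arrays 1 to 4. Prl and Gh1, the most abundant pituitary hormone genes, exceeded background clearly on 1 and 2 arrays after T3 and on 1 array each after saline, and had ratios of 4.68 and 2.12 on array 1, where Rxrg was at -0.48.

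Of 15 oligodendrocyte markers, a list added after the Rxrg values were seen, 0 passed and 11 had a mean below 0. By the unadjusted limma p under 0.05 by which Rxrg was lower, 5 of them were lower and 1 higher, each by its brightest probe. The lower ones were Opalin, Cnp, Mobp, Ermn and Cldn11, and the higher one was Gjb1. Of all named genes, 9.26% passed by that p in either direction. The brighter Opalin probe was at -0.47 ± 0.31 and below 0 on all 4 arrays. The other Opalin probe was at -0.18 ± 0.80 and above 0 on 2 arrays. The other Mobp probe was at -0.18 ± 0.34, and neither of these passed by the unadjusted p. The list median was -0.16 over all arrays and -0.16, -0.32, -0.02 and 0.085 on arrays 1 to 4. On array 4 the list was above 0 and Rxrg at -0.17. On array 3, where the brighter Rxrg probe was lowest, the list median was near 0. Single markers were lower there by their brightest probes (Opalin -0.44, Mobp -0.46, Cnp -0.37). The other probes of Opalin and Mobp were at 0.21 and 0.15 on that array. On that array the median was -0.21 for astrocyte, -0.44 for hypothalamic, -0.11 for blood and meninges and -0.94 for pituitary markers. It was above 0 for neuronal (0.21), choroid plexus (0.51) and thalamus markers (0.18). Of 9 astrocyte markers 6 had a mean below 0 (median -0.15), of 7 neuronal markers 1 (median 0.020), and 0 of either list passed. The median over all named genes was 0.0043. By an unadjusted limma p under 0.05, 2 astrocyte markers were lower (Gja1 and Aldoc) and 2 higher (Fgfr3 and Slc1a2), with the connexin gene Gja1 at -0.62 ± 0.23 and below 0 on all 4 arrays. The part of pituitary or glial cells in the Rxrg ratio was not tested.

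Rxrb, the beta retinoid X receptor found in most tissues, was on the other side of 0. Its ratios were -0.08, 0.73, 0.11 and 0.25 on arrays 1 to 4. Array 2 stood highest and array 1 was slightly below 0. The mean was 0.25 ± 0.35 (SD, n = 4), or 119% of the saline level, with a 95% limma interval of -0.05 to 0.55 and a limma adjusted p of 0.695. Without replicate 2 it was 0.092 (limma adjusted p = 0.826). By rat, the levels were 8.60, 8.94, 8.80 and 9.12 after T3 and 8.68, 8.21, 8.69 and 8.87 after saline. The groups overlapped, and the saline rat of array 2, which was also lowest for Thra, was the lowest of the 8.

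Within each array, the ratio of the brighter Rxrg probe was below that of Rxrb, by -0.41, -1.0, -0.76 and -0.42 on the log2 scale. The mean difference was -0.65 ± 0.29 (SD, n = 4 arrays), and an exact sign-flip permutation test (2-sided) gave p = 0.13, the smallest that 4 arrays allow, so that this test cannot reach the threshold here. The dimmer Rxrg probe gave a mean difference of -0.62 ± 0.28 and the same exact p of 0.13. In the authors' deposited table the mean differences were -0.31 and -0.19, with exact sign-flip p of 0.375 and 0.5.

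Ncoa2, the p160 coactivator also known as GRIP1 or TIF2, did not hold a direction across arrays. Its ratios were 0.21, -0.27, 0.15 and -0.31 on arrays 1 to 4. They were above 0 where T3 was labelled with Cy5 (mean 0.18) and below 0 where it was labelled with Cy3 (mean -0.29), so that the sign followed the dye, as for 23.1% of all probes. The mean was -0.06 ± 0.27 (SD, n = 4), with a 95% limma interval of -0.31 to 0.20 and a limma adjusted p of 0.965. Median signals were 98 to 277 after T3 and 114 to 265 after saline, and the probe was well above background on 3 of 4 arrays in each channel. By rat, the levels were 7.42, 7.06, 7.34 and 7.24 after T3 and 7.21, 7.33, 7.19 and 7.55 after saline, with overlapping groups.

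The receptors' other partners and coregulators were counted in lists of 96 genes that include the members, of which 65 had a probe and 56 were measured. Of these, Hr was higher and 0 were lower past the threshold, where 0.161% of the 9295 named genes were called. By an unadjusted limma p under 0.05, 5 of the 56 passed, against 9.26% of all named genes. The median ratio of the 56 genes was 0.0044 and that of all named genes 0.0043.

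Hr, which encodes a corepressor that binds thyroid hormone receptors and is itself a known target of T3, was at 1.19, 1.00, 1.16 and 1.37. It was above 0 by a similar amount on every array (mean 1.18 ± 0.15, SD, n = 4, limma adjusted p = 0.0129). The known T3 target Klf9 was at 0.90 ± 0.27 by its brighter probe and 1.09 ± 0.17 by the other (SD, n = 4, limma adjusted p = 0.0517 and 0.0129). Of 12 alternatives, the brighter Klf9 probe passed in 4 and the other in 5. Dio3, the deiodinase that inactivates T3, was at 2.49 ± 1.16 (SD, n = 4, limma adjusted p = 0.0838). Its ratios were 3.43 and 3.56 where T3 was labelled with Cy5, and 1.59 and 1.40 where it was labelled with Cy3. Dio3 passed in 2 of 12 alternatives, the dye term (limma adjusted p = 0.00077) and no filter (0.0379). The other Dio3 probe did not pass the filter on dim probes and was at 0.22, 0.48, 0.50 and 0.14 on arrays 1 to 4. Of the other genes in the list of 5 T3 response genes, the clock output gene Dbp was at 0.33 ± 0.13 and the neuronal gene Nrgn at 0.07 ± 0.18, below 0 on array 2, and neither passed (limma adjusted p = 0.248 and 0.928). Hr, Klf9, Dio3 and Dbp were above 0 on all 4 arrays. Hr stayed between 0.89 (the authors' deposited values) and 1.68 (processed signals) in its 11 alternatives. It passed in 4 of them, with limma adjusted p from 0.0034 upward. Its call was lost with processed signals, median centring, the authors' deposited values, trend and robust variance, and without array 1, 3 or 4 (limma adjusted p = 0.0956, 0.139 and 0.0823).

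**Figure D3:**
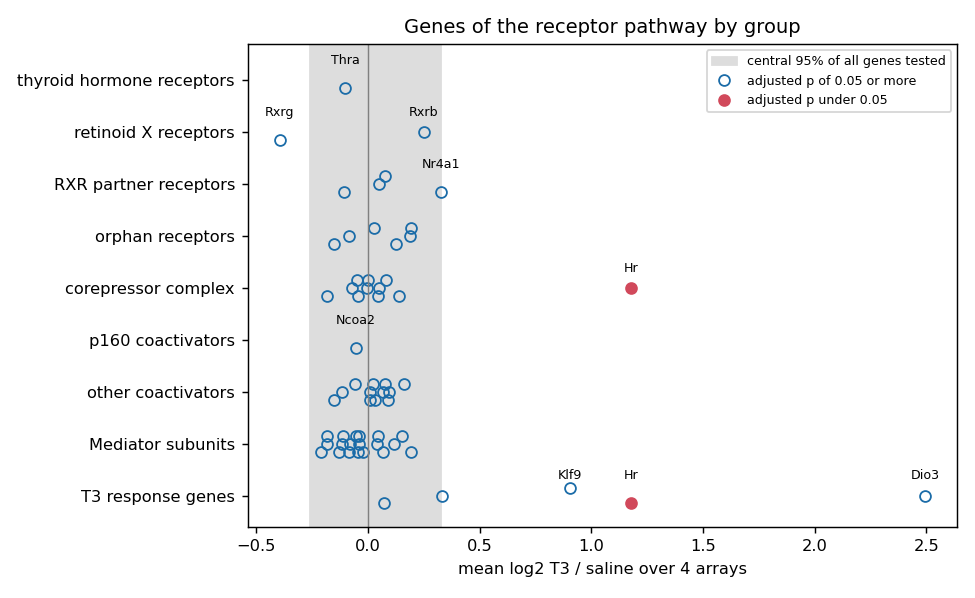
Mean log2 T3 over saline of the 4 arrays (x axis) for each measured gene, by functional group (y axis), as filled points where the limma adjusted p was under 0.05; grey spans the central 95% of all 9295 named genes. Apart from Hr the coregulator groups lie between -0.21 and 0.19, inside the grey span, while Rxrg lies below it at -0.39. The partner receptor Nr4a1 lies just above the span, at 0.329 against its upper end at 0.326.

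In the corepressor complex, 11 of 15 listed genes were measured and Hr was the one called. Hdac3, the deacetylase of the complex, was at -0.07 ± 0.07 and -0.13 ± 0.07. Sin3b, a scaffold of another deacetylase complex, had the smallest p after Hr (-0.18 ± 0.22, limma adjusted p = 0.697).

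Among acetyltransferase, methyltransferase and other coactivators, 12 of 16 genes were measured and 0 passed. Crebbp, the acetyltransferase CBP, was at -0.06 ± 0.18. Ppargc1b, the coactivator PGC-1 beta, had the smallest p of the list (-0.15 ± 0.23, limma adjusted p = 0.795). The 3 kept probes of Kat2b, the acetyltransferase PCAF, were at -0.11, -0.15 and 0.10 and so disagreed in sign.

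Of 33 genes of the Mediator complex and its kinase module, 19 were measured and 0 passed, and Med1 was not among them. Means ran from -0.21 to 0.19, with 13 below 0 and a list median of -0.043. Med29 had the smallest p (-0.18 ± 0.10, lower on all 4 arrays, limma adjusted p = 0.569).

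Of 14 receptors that pair with retinoid X receptors, 12 had a probe and 4 passed the filter on dim probes, with 0 called. The other 8, among them Ppara, Pparg, Vdr and Rara, were not well above background on enough arrays. Nr4a1, the immediate early receptor NUR77, was at 0.82, 0.19, 0.26 and 0.05. It was above 0 on all arrays and highest on array 1 (mean 0.33 ± 0.34, SD, n = 4, limma adjusted p = 0.553). Nr1h2 and Nr1h3, the liver X receptors, were at -0.11 ± 0.05 and 0.05 ± 0.19.

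Of 10 orphan receptors that bind related DNA sites, 6 were measured and 0 passed. Nr1d2, the clock repressor REV-ERB beta, had the smallest p (0.19 ± 0.14, higher on all 4 arrays, limma adjusted p = 0.602). Nr2f1, which encodes COUP-TF1, was at 0.13 ± 0.26 and 0.03 ± 0.19 by its probes, and Nr2f2, which encodes COUP-TF2, at -0.09 ± 0.46.

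The named genes whose 4 ratios lay closest to the brighter Rxrg probe were found by Euclidean distance over the 4 arrays. Phgdh, the entry enzyme of serine synthesis, was closest at a distance of 0.099, followed by Fn1, which encodes fibronectin, at 0.14 and Egfl6 at 0.17. The dimmer Rxrg probe lay at 0.18, with 4 of the other named genes closer. For Thra the closest were Nucks1 (0.11), Xrcc4 (0.12) and Klc1 (0.13). With 4 values a gene, such distances describe these arrays alone.

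The member probes were fitted again under each processing alternative. Both Rxrg probes stayed below 0 and Rxrb above 0 in all 12 alternatives, and no member probe passed in any of them. The alternatives of filter, dye term and variance model leave the mean ratio of a probe unchanged, so its direction could not change in them.

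**Figure D4:**
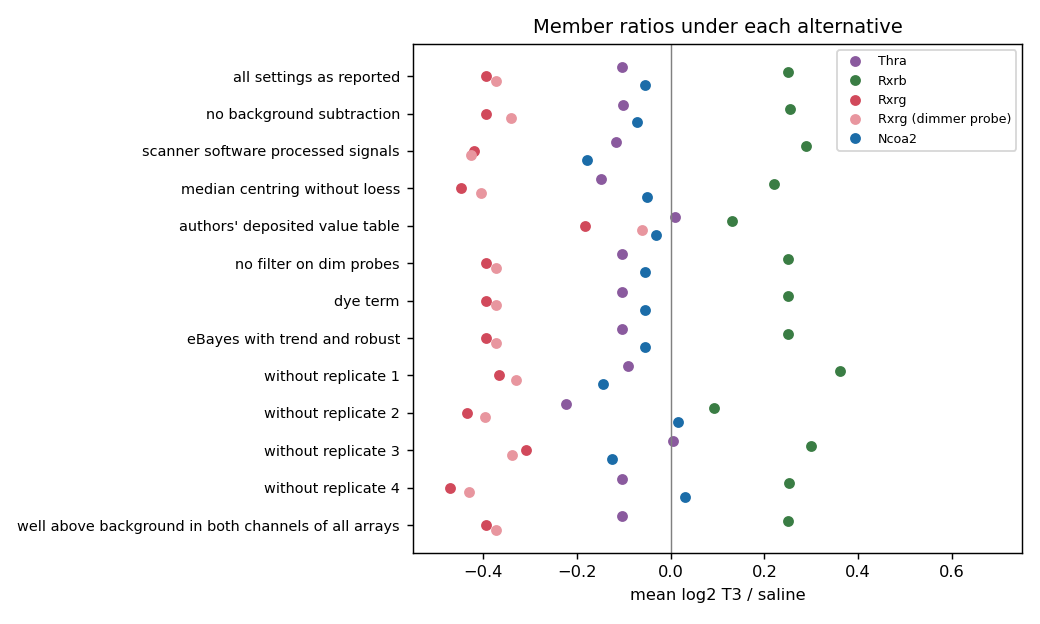
Mean log2 T3 over saline (x axis) of the 5 member probes under each processing alternative (y axis); each point is the mean over the arrays used. Rxrg lies between -0.47 and -0.18 by its brighter probe and between -0.43 and -0.060 by its dimmer probe. Rxrb lies between 0.092 and 0.36, Thra between -0.22 and 0.0090 and Ncoa2 between -0.18 and 0.030. The ends at -0.18 and -0.060 for Rxrg and 0.0090 for Thra are the authors' deposited values, whose log base is not given. In the scanner files alone Rxrg ran from -0.47 to -0.31 (brighter probe) and from -0.43 to -0.33 (dimmer probe).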

How the data were processed

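Total RNA was measured on 4 two-colour Agilent arrays. The deposited scanner files held median spot and background intensity, not normalized, from Feature Extraction 10.7.3.1, and, to check the dyes, log10 ratios (red over green), per the file headers. The authors' deposited table held ratios read here as log2. The submitters' processing notes name limma 3.18.9.

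Median signals were corrected with normexp (offset 50) and loess in limma 3.58.1 (R 4.3.3), with control spots at weight 0. Outlier spots were left out, spots of a probe averaged and ratios turned to T3 over saline. Channel levels were scaled with Aquantile. A probe was kept when well above background on at least 3 of 4 arrays in either group (23148 probes). RefSeq (GRCr8) gave 16964 probes a symbol, and a gene's value was its brightest kept probe. The limma fit had 3 residual and 4.35 prior degrees of freedom, and was tested on simulated data. All arrays lay on a single slide. The labels count 8 rats, so each array was taken as an independent pair. The number of arrays limits the precision.

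Members and lists were chosen with earlier results of these data known. Named were all members, called list genes or otherwise the one with the smallest p, Hr, Klf9, Dio3, Nr1d1 and the 3 genes closest to Rxrg and to Thra. Hdac3, Sin3b, Crebbp, Kat2b, Nr1h2, Nr1h3, Nr2f1, Nr2f2 and the marker genes named fall outside that rule and were chosen for their roles after their values were seen. Alternatives concerned background, signal, normalization, source, filter, dye, variance model, probe choice and left-out arrays.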

Additional observations from a re-analysis of the deposited data

Results flagged for a closer look

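Among 61 probes and genes of the receptor pathway and T3 response lists, 1 had a value on a single array that lay far from the other 3, where chance gives about 1 in 20, or 3.05. Ncoa4, a coactivator that also serves as a ferritin cargo receptor, had a log2 ratio of -0.48 on array 2, whereas arrays 1, 3 and 4 gave 0.25 to 0.31. On that array the haemoglobin gene Hbb-b1 was at -4.25, and a link between them was not tested. None of the member probes stood apart in this way on any array.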

How the results depend on the processing

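Of 59 combinations of member probe and alternative, 55 kept the direction and 0 passed the threshold. The 55 include the alternatives of filter, dye term and variance model, in which the direction could not change. Thra was at 0.0090 with the authors' deposited values. Without each replicate in turn, Thra ranged from -0.22 to 0.0055, Ncoa2 from -0.14 to 0.030, Rxrg from -0.47 to -0.31 and Rxrb from 0.092 to 0.36. Ncoa2 was above 0 without replicate 2 (0.015) or 4 (0.030). It was not tested under the filter requiring both channels of all arrays, which it did not pass. The mean of both Rxrg probes was -0.38.

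The count of called probes, 23 as reported, was 0 with Agilent's processed signals, 0 with median centring, 0 with trend and robust variance, 10 with the authors' deposited values, 67 with no filter and 15 with the dye term (limma). At an unadjusted limma p under 0.05 the 3 settings with 0 calls gave 1597, 131 and 1162 probes, against 1882 as reported. Leaving out a replicate gave 0 to 70, with 0 for replicates 1, 3 and 4 (1402, 1382 and 1578 at an unadjusted p under 0.05). The causes were not tested. The planned difference between Rxrg and Rxra was not run, since no probe was matched to Rxra. The dye orientations, the alternatives for Hr, Klf9 and Dio3 and the oligodendrocyte, astrocyte and neuronal lists were added after seeing the data. Each array is itself a pair of rats, so no further replicate block was possible.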
